A study of Cricetiscus sungorus with 12 samples.

Results

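Cells measure oxygen through enzymes that hydroxylate the hypoxia-inducible factor (HIF). Prolyl hydroxylases use oxygen to mark the alpha subunit of HIF for binding by the von Hippel-Lindau protein and for degradation, and an asparaginyl hydroxylase blocks its co-activators. When oxygen is short the alpha subunit is stable, pairs with its beta subunit and activates genes of blood vessel growth and glucose use.

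10 genes of this pathway were examined in the hypothalamus, out of 17191 mouse GeneIDs in the files, and all 10 were present. They were chosen by GeneID as members of the pathway, by a rule that uses no measured value, but with earlier results of these data known. They are the prolyl hydroxylases Egln1 (GeneID 112405), Egln2 (112406) and Egln3 (112407), the asparaginyl hydroxylase Hif1an (319594), the alpha subunits Hif1a (15251) and Epas1 (13819), the beta subunit Arnt (11863), Vhl (22346), the vascular growth factor Vegfa (22339) and its receptor Kdr (16542). The files give GeneIDs without symbols, chromosomes or positions, and hamster genome coordinates were not used here.

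Poly(A) RNA of the whole hypothalamus was sequenced in 12 adult, outbred Djungarian hamsters, a species that enters daily torpor spontaneously in winter. The 4 LP-NT hamsters lived in a long photoperiod (16 h light, 8 h dark) and were normothermic, the 4 SP-NT hamsters lived in a short photoperiod (8 h light, 16 h dark) and were normothermic, and the 4 SP-HT hamsters lived in the same short photoperiod and were labelled as hypothermic, in torpor. All were sampled at ZT 4, that is 4 h after lights on, and by the study's methods only the short photoperiod hamsters carried an implanted transmitter, so that photoperiod and implant cannot be told apart. By the labels LP-NT and SP-NT held 2 males and 2 females each and SP-HT held 3 males and 1 female.

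The samples held between 20204979 and 24186918 expected counts. The hypothalamic neuropeptide genes Avp and Sst were present in every sample, at no less than 227.71 and 178.21 TPM, a level per length of transcript scaled to the same total in each sample. SP-NT replicate 19, labelled male, held at most 1 count of each of 3 GeneIDs that had at least 163 counts in the 6 other males and at most 5 in any female, so this library went against its sex label. The edgeR comparisons of counts and the limma comparisons of transcript length that rest on it were also made without it. DESeq2 and the other alternative fits were not. In whole tissue, fewer cells of a type and less RNA per cell cannot be told apart.

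Per length of transcript, Epas1 was the most abundant of the 10 genes, with a median over 12 samples of 146 TPM. Vegfa had a median of 99.2 TPM, Egln2 of 79.3 TPM and Hif1a of 56.0 TPM. These were followed by Arnt with 29.0 TPM, Egln3 with 21.1 TPM, Hif1an with 20.8 TPM and Vhl with 14.9 TPM, while Kdr with 7.50 TPM and Egln1 with 4.18 TPM were lowest. Hif1a, between 48.0 and 59.2 TPM, stood apart from Egln2 above it (65.0 to 92.9 TPM) and from Arnt below it (19.1 to 34.8 TPM). All other neighbours in this order overlapped in range. Among the prolyl hydroxylases Egln2 thus held most of the summed TPM, while Egln1, the main regulator of HIF1A in many cell types, was lowest. This order rests on the transcripts assembled for each GeneID, which for Egln1 came from 4 components of the de novo assembly. How complete they were was not tested.

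**Figure D1:**
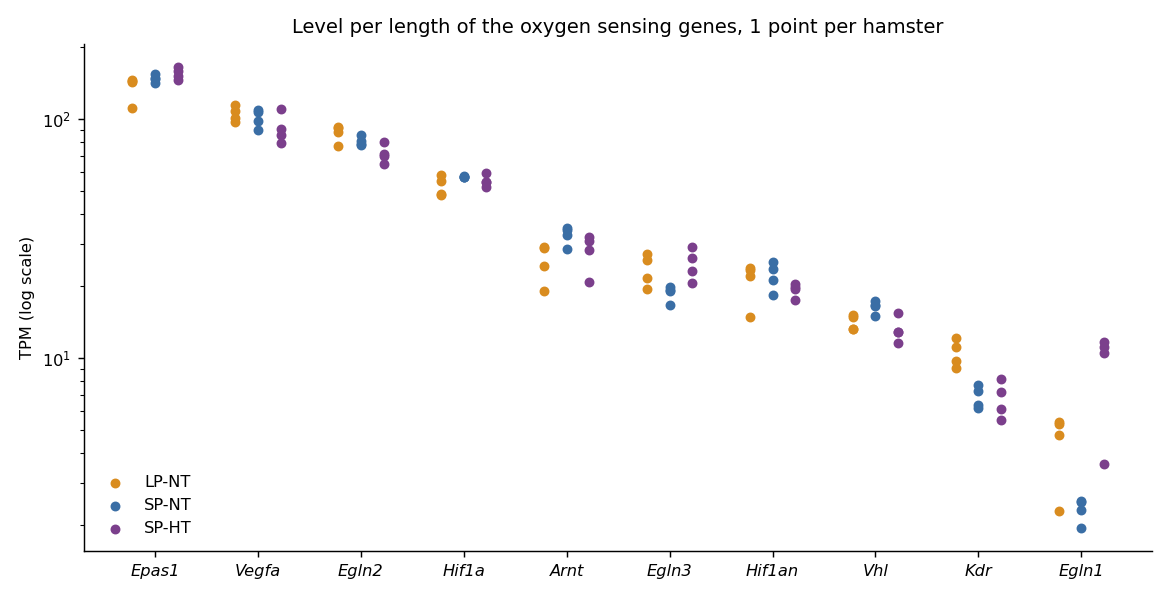
TPM (log axis) of each of the 10 genes, ordered by their median over 12 samples, with 1 point per hamster and the groups in colours. Epas1 lies near 146 TPM, Egln1 spreads from 1.95 to 11.7 TPM, and only Hif1a is separated from both of its neighbours.

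The question of the first comparison is what a short photoperiod changed in normothermic hamsters, and that of the second what was different in torpor under the same photoperiod. The last comparison was of SP-HT with LP-NT. The 3 comparisons share groups, so their results are not independent. A call is an adjusted p under 0.05 in edgeR's quasi-likelihood test on expected counts, with Benjamini-Hochberg adjustment over all GeneIDs tested. A log2(FC) is positive when SP-NT is above LP-NT, when SP-HT is above SP-NT and when SP-HT is above LP-NT, with groups as labelled. Normalized counts are given as CPM, a library's counts scaled to a common size, and take no account of transcript length.

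The direction of every torpor difference given here rests on the sample labels. For the genes whose printed values were used to attach names, the study prints its torpor changes with the reverse sign, and Egln1 also has the reverse sign there, while its photoperiod signs are the same as those obtained from the labels. A second tool, DESeq2, with transcript lengths in the fit, called 32 GeneIDs for photoperiod by the labels. Of these 15 were higher and 17 lower, the numbers that the study prints. SP-HT against LP-NT gave 623. Torpor gave 759, 303 higher and 456 lower, and the study prints 759 with the directions the other way round. The study thus grouped the samples as labelled, and only its torpor sign is turned against the labels. Whether the labels themselves were right was not tested. If SP-HT and SP-NT were exchanged in both, every direction in torpor would turn, and the values given for photoperiod and for SP-HT against LP-NT would change places.

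Of the 10 genes, 0 were called for photoperiod, 1 for torpor (Egln1) and 1 for SP-HT against LP-NT (Egln1). For photoperiod 0.037% of 16199 GeneIDs were called, and 784 had an unadjusted p under 0.05, among them Kdr, Egln3 and Arnt. For torpor 2.4% of 16195 were called, and 2976 had an unadjusted p under 0.05, among them Egln1, Egln3, Vhl, Epas1 and Arnt. For SP-HT against LP-NT 1.37% of 16157 were called, and 2442 had an unadjusted p under 0.05, among them Egln1, Kdr and Epas1. DESeq2, as a second tool, called Kdr for photoperiod (0.204% of GeneIDs called), Egln1 and Egln3 for torpor (6.28%), and Egln1 and Kdr for SP-HT against LP-NT (4.37%). The median log2(FC) of the 10 genes was 0.05 for photoperiod, -0.01 for torpor and -0.04 for SP-HT against LP-NT, beside 0.00 over all GeneIDs in each comparison. Of the 10 log2(FC), 6 were positive for photoperiod, 5 for torpor and 4 for SP-HT against LP-NT, so the genes had no common direction.

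**Figure D2:**
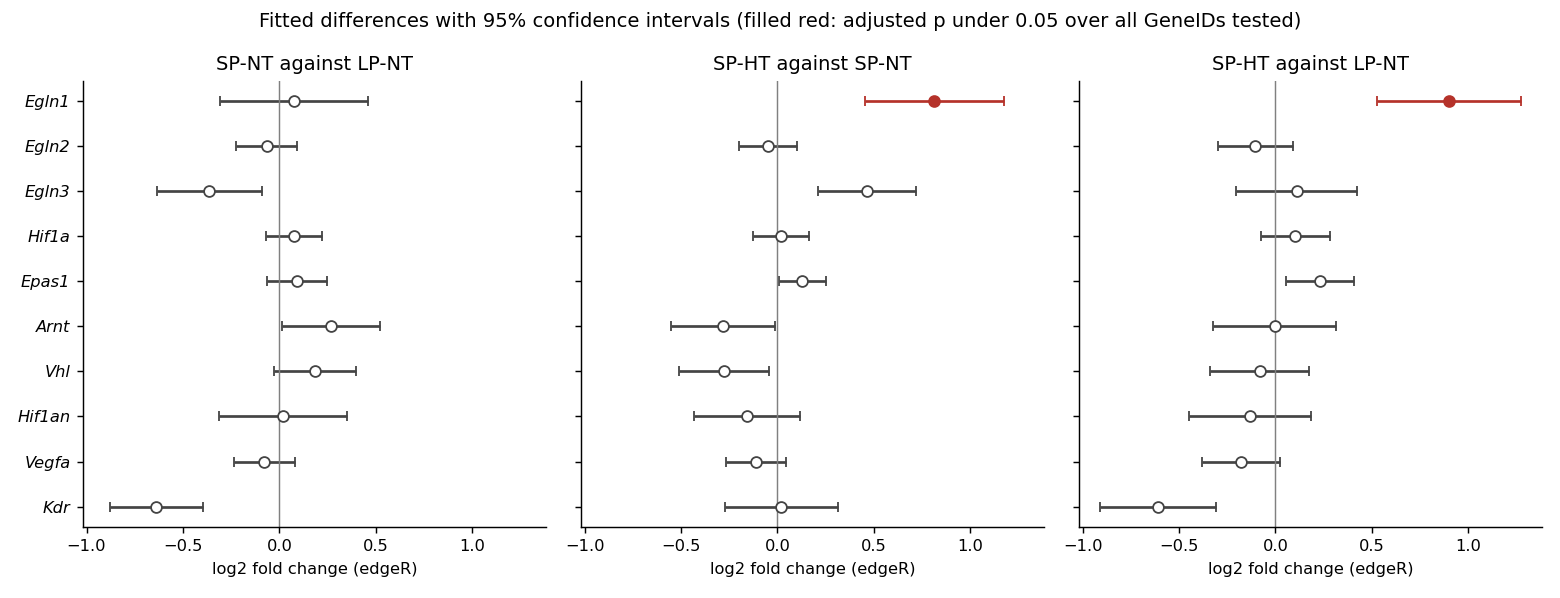
log2(FC) of the 10 genes from edgeR (x axis) with 95% confidence intervals, in 3 panels, for photoperiod, torpor and SP-HT against LP-NT. Filled red points have an adjusted p under 0.05, which is Egln1 at 0.81 and at 0.90, and the open points include Kdr at -0.64 and -0.61.

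The prolyl hydroxylase gene Egln1 was higher in the hamsters that the labels call SP-HT than in both groups labelled normothermic, a direction subject to the doubt about the labels stated above. Its normalized counts in SP-HT replicates 02, 10, 26 and 33 were 3.11, 2.85, 2.49 and 3.19 CPM. In SP-NT replicates 19, 36, 37 and 38 they were 1.44, 1.83, 1.55 and 1.78 CPM, and in LP-NT replicates 01, 02, 03 and 05 they were 1.58, 1.48, 1.46 and 1.74 CPM. Every SP-HT hamster was above all 8 normothermic hamsters, which 5.73% of 16380 GeneIDs also showed in 1 direction or the other, while the normothermic groups overlapped.

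The mean was 1.56 ± 0.128 CPM in LP-NT (SD, n = 4), 1.65 ± 0.185 in SP-NT and 2.91 ± 0.314 in SP-HT. Against SP-NT, Egln1 as labelled rose 1.76-fold (95% confidence interval 1.37 to 2.26, log2(FC) 0.81 ± 0.164 (SE), adjusted p = 0.0312 in edgeR). Against LP-NT it rose 1.87-fold (1.44 to 2.42, log2(FC) 0.90 ± 0.170, adjusted p = 0.0331 in edgeR). Between SP-NT and LP-NT its log2(FC) was 0.08, with an interval from -0.31 to 0.46 (adjusted p = 0.957 in edgeR), and with effective lengths in the fit it turned to -0.93 (adjusted p = 0.917 in edgeR).

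The torpor call was near its threshold in edgeR. DESeq2 gave a log2(FC) of 0.83 (adjusted p = 0.00812), and of 2.01 with effective lengths in the fit (adjusted p = 9.04e-06). On TPM, limma gave 1.82 with a pseudocount of 0.1 (adjusted p = 0.0558) and 1.52 with a pseudocount of 1 (adjusted p = 0.0597). Without SP-HT replicate 26 edgeR gave a log2(FC) of 0.88 with an adjusted p of 0.0446, and leaving out any 1 of the other 7 hamsters gave adjusted p from 0.0628 to 0.0841, with the log2(FC) between 0.76 and 0.87. The lowest of these, 0.76 (adjusted p = 0.0841 in edgeR), was that without SP-NT replicate 19, the library that went against its sex label. With the labelled sex as a covariate edgeR gave 0.84 and an adjusted p of 0.0518. Against LP-NT, leaving out any 1 hamster kept the log2(FC) between 0.85 and 0.97 and took the adjusted p to between 0.0501 and 0.105.

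**Figure D3:**
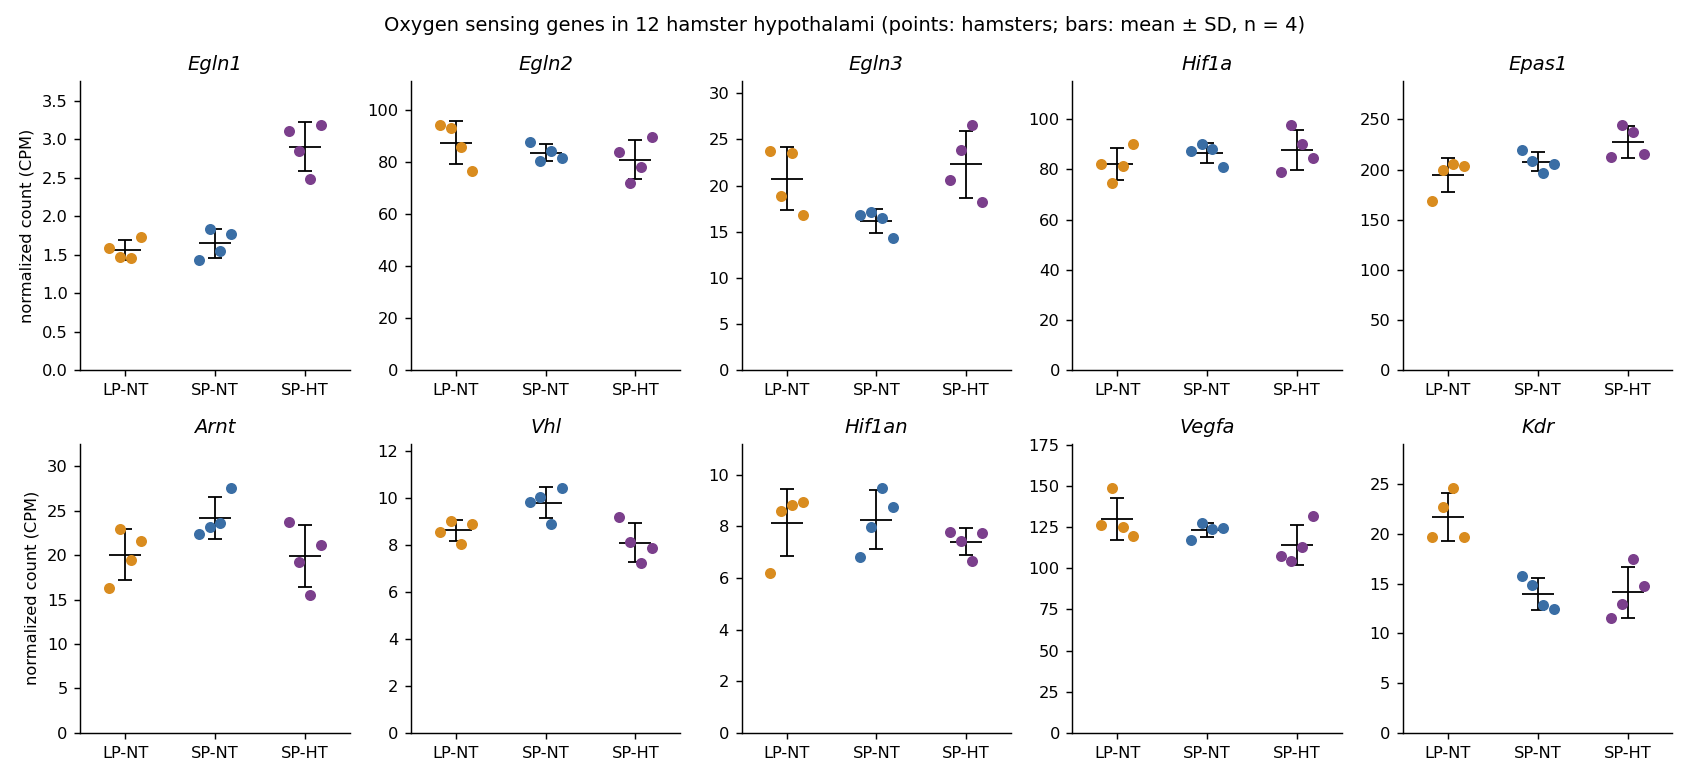
Normalized counts (CPM, y axis from 0) of the 10 genes in the 3 groups, with 1 point per hamster and the mean ± SD of 4. Egln1 in SP-HT lies between 2.49 and 3.19 CPM above all 8 normothermic hamsters, Egln3 is lowest in SP-NT, and Kdr is highest in LP-NT.

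Egln1 was also the gene with the fewest reads. SP-HT replicates 02, 10, 26 and 33 held 71, 59, 53 and 65 counts, SP-NT replicates 19, 36, 37 and 38 held 35, 44, 36 and 44, and LP-NT replicates 01, 02, 03 and 05 held 35, 34, 32 and 38. An exact Poisson interval, which covers counting error only, ran from 21.9 to 45.2 for 32 counts and from 55.5 to 89.6 for 71 counts. The GeneID joined 5 transcripts from 4 components of the de novo assembly, so that reads of different fragments or related copies could be summed in it.

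The estimated mix of these transcripts differed between hamsters. The estimate rests on the few reads given above, and how surely they were assigned to the transcripts was not examined. The effective length, which RSEM averages over the transcripts of a GeneID by their estimated shares, was 782, 759, 857 and 2098 bases in LP-NT replicates 01, 02, 03 and 05. It was 2045, 2014, 1894 and 1995 bases in SP-NT replicates 19, 36, 37 and 38, and 718, 725, 1829 and 793 bases in SP-HT replicates 02, 10, 26 and 33. All SP-NT hamsters thus had a long estimated mean transcript, 3 of 4 hamsters in each of the other groups had a short one, and none lay between 857 and 1829 bases. The span was 2.92-fold. Spans over 2 were found in 8.27% of multi-transcript GeneIDs with a mean of at least 10 counts. They were found in 28.6% of those with a mean of 20 to 100 counts, the range that holds Egln1. Spans at least as wide as that of Egln1 made up 3.62% and 13.7% in the same order.

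For torpor the difference in effective length of Egln1 was -1.09 on the log2 scale and was not called (limma, adjusted p = 0.200). Without SP-HT replicate 26, the SP-HT hamster with a long estimated mean transcript, it was -1.42 (limma, adjusted p = 0.000677). When an SP-NT hamster was left out instead, the adjusted p was between 0.324 and 0.343 in limma. Without SP-HT replicate 02, 10 or 33 the mean count of Egln1 fell under the minimum of 50, and its length was not tested. Against LP-NT the mean count of Egln1 was under the minimum of 50, so the main length fit covered it in torpor only. With a minimum mean of 10 counts its length was tested in all comparisons and was not called in limma.

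On the TPM scale, which divides by this length, Egln1 was at 11.7, 10.5, 3.59 and 11.1 TPM in SP-HT replicates 02, 10, 26 and 33. It was at 1.95, 2.53, 2.31 and 2.5 TPM in SP-NT replicates 19, 36, 37 and 38, and at 5.30, 5.38, 4.76 and 2.30 TPM in LP-NT replicates 01, 02, 03 and 05. All SP-HT hamsters were again above all SP-NT hamsters, but SP-HT replicate 26 fell below 3 of the LP-NT hamsters, so these groups overlapped. With lengths in the fit, edgeR gave a torpor log2(FC) of 1.99 (adjusted p = 0.0285) and one against LP-NT of 1.07 (adjusted p = 0.268). The part of the transcript mix in the count difference was not tested.

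**Figure D4:**
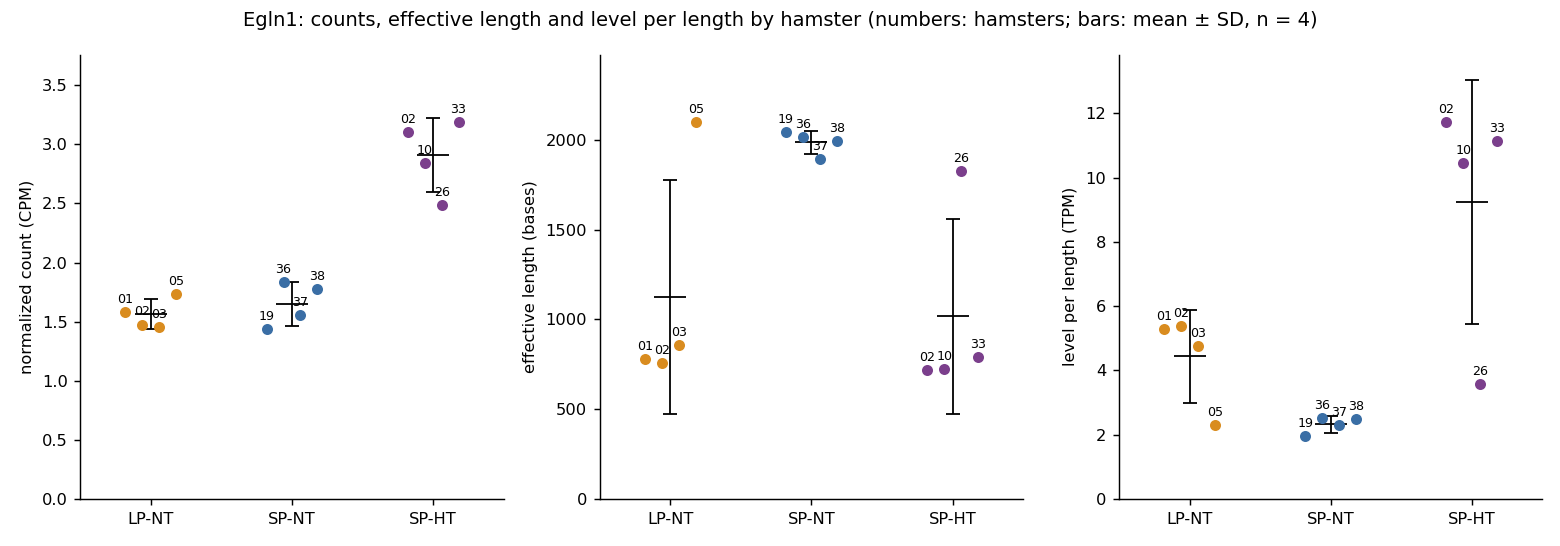
Egln1 in each hamster as normalized count (CPM), effective length (bases) and level per length (TPM), with replicate numbers beside the points and the mean ± SD of 4. In counts SP-HT is above both other groups, while the effective length falls into a range of 718 to 857 and one of 1829 to 2098 bases and TPM follows both.

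Egln3, which in many cells is itself a HIF target and limits the HIF response, was at 20.6, 23.8, 26.6 and 18.2 CPM in SP-HT replicates 02, 10, 26 and 33. It was at 16.8, 17.2, 16.5 and 14.3 CPM in SP-NT replicates 19, 36, 37 and 38, and at 23.8, 18.9, 23.6 and 16.9 CPM in LP-NT replicates 01, 02, 03 and 05. SP-NT lay below SP-HT without overlap, as did the groups of 12.1% of GeneIDs in torpor in either direction, with Egln1 and Egln3 the 2 such genes of the 10.

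The torpor log2(FC) of Egln3 was 0.46 ± 0.115 (SE), a 1.38-fold difference with a 95% interval from 1.16 to 1.64. It did not pass the threshold in edgeR (adjusted p = 0.0650) and did in DESeq2 (0.47, adjusted p = 0.00784), and without SP-NT replicate 19 it was 0.48 (adjusted p = 0.123 in edgeR). For photoperiod edgeR gave -0.36 ± 0.122 (adjusted p = 0.913), and SP-HT against LP-NT gave 0.11 ± 0.142 (adjusted p = 0.773 in edgeR). Egln3 joined 3 transcripts of 1 component and its effective length stayed between 2403 and 2452 bases.

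Egln2 was not called in any comparison of counts. Its mean was 87.3 ± 8.21 CPM in LP-NT (SD, n = 4), 83.5 ± 3.31 in SP-NT and 80.8 ± 7.56 in SP-HT, and its 3 log2(FC) lay between -0.10 and -0.05. The interval in torpor ran from -0.20 to 0.10, wholly below that of Egln1, which began at 0.45.

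The effective length of Egln2 was ordered by group. It was 2696, 2777, 2717 and 2753 bases in LP-NT replicates 01, 02, 03 and 05. It was 2850, 2840, 2944 and 2939 bases in SP-NT replicates 19, 36, 37 and 38, and 3174, 2952, 2961 and 3111 bases in SP-HT replicates 02, 10, 26 and 33. No group overlapped another, and 0.0896% of 12273 multi-transcript GeneIDs showed the same order or its reverse, and this pattern was singled out after its values were seen.

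The mean effective length went from 2736 ± 36.2 bases for LP-NT (SD, n = 4) through 2893 ± 55.8 for SP-NT to 3049 ± 110 for SP-HT. In Kdr, a single transcript whose effective length moves with fragment size alone, the 12 samples spanned only 5652 to 5681 bases. Egln2 joined 13 transcripts of 1 component, and which of them differed was not analysed here.

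In limma on log2 effective length, SP-NT exceeded LP-NT by 0.08 ± 0.0171 (SE, adjusted p = 1.00) and SP-HT exceeded SP-NT by 0.08 ± 0.0283 (adjusted p = 0.335). Without SP-NT replicate 19 these were 0.09 and 0.07 (limma, adjusted p = 0.669 and 0.534). SP-HT exceeded LP-NT by 0.16, with an adjusted p of 0.0875 in the fit of those groups alone and of 0.0198 in limma on all 12 samples. Of the members tested for length 0 were called in each comparison. The background was 0.0% of GeneIDs called for photoperiod, with 559 at an unadjusted p under 0.05, 0.122% for torpor and 0.123% for SP-HT against LP-NT. Groups without overlap in effective length made up 2.65% of GeneIDs for photoperiod (Egln2 of the 8 members tested), 8.89% for torpor (Egln1 and Egln2 of 9) and 8.19% for SP-HT against LP-NT (Egln2 of 8).

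**Figure D5:**
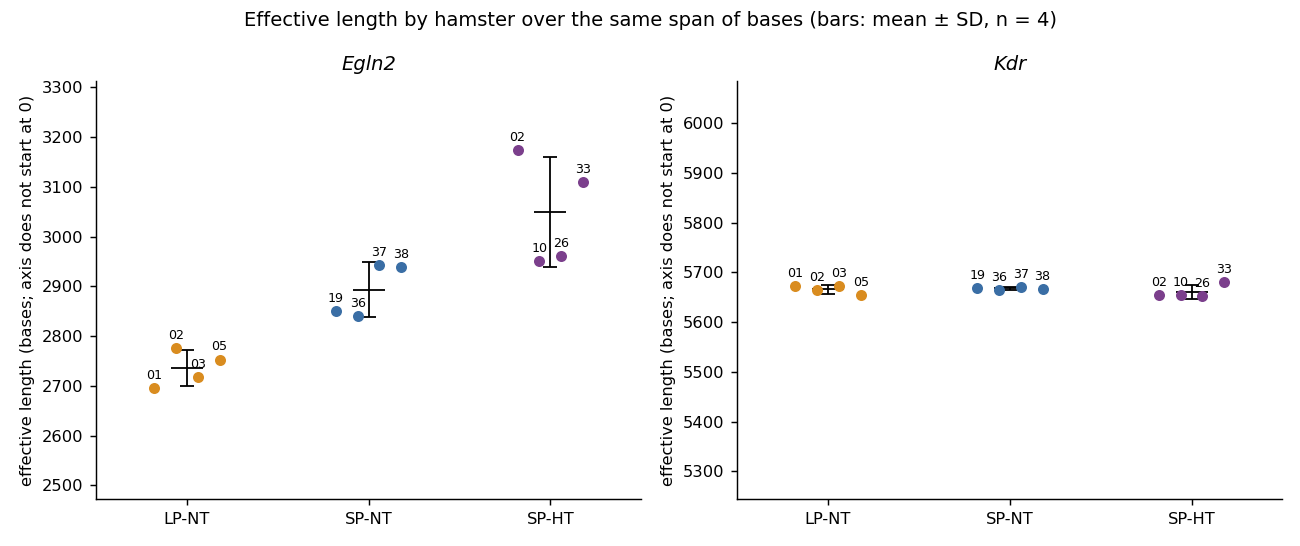
Effective length in bases of Egln2 (left) and of Kdr (right) in each hamster, drawn over spans of equal size that do not start at 0, with replicate numbers and the mean ± SD of 4. Egln2 runs from 2696 to 2777 bases in LP-NT, from 2840 to 2944 in SP-NT, and from 2952 to 3174 in SP-HT, while Kdr stays between 5652 and 5681.

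Hif1an, the asparaginyl hydroxylase, had means of 8.14 ± 1.31 CPM in LP-NT (SD, n = 4), 8.27 ± 1.14 in SP-NT and 7.41 ± 0.517 in SP-HT. The groups overlapped, and its log2(FC) in torpor was -0.16 with an interval from -0.43 to 0.11.

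The alpha subunits of HIF were not called in any comparison. Hif1a had a mean of 82.1 ± 6.25 CPM in LP-NT (SD, n = 4), 86.5 ± 3.86 in SP-NT and 87.8 ± 7.99 in SP-HT. Its torpor log2(FC) was 0.02, with an interval from -0.13 to 0.17 (adjusted p = 0.911 in edgeR). HIF1A is mainly regulated through protein stability, which these data do not measure.

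Epas1, the alpha subunit of HIF2 that is prominent in endothelium and glia, was at 212, 244, 237 and 216 CPM in SP-HT replicates 02, 10, 26 and 33. It was at 169, 200, 206 and 204 CPM in LP-NT replicates 01, 02, 03 and 05. SP-HT was thus above LP-NT without overlap, while SP-NT, from 197 to 219 CPM, overlapped both. The log2(FC) of SP-HT against LP-NT was 0.23 ± 0.0797 (SE, adjusted p = 0.201 in edgeR) and 0.16 without LP-NT replicate 01, the lowest hamster.

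Arnt, the beta subunit, and Vhl, the recognition subunit of the ubiquitin ligase that binds hydroxylated HIF, were both highest on average in SP-NT. Arnt had a mean of 24.2 ± 2.32 CPM in SP-NT (SD, n = 4), 20.04 ± 2.90 in LP-NT and 19.9 ± 3.44 in SP-HT. Vhl had 9.82 ± 0.664 CPM in SP-NT, 8.64 ± 0.434 in LP-NT and 8.12 ± 0.813 in SP-HT. The groups overlapped for both genes, and their torpor log2(FC) of -0.28 and -0.27 did not pass the threshold in edgeR (adjusted p = 0.253 and 0.201). Arnt joined 27 transcripts from 9 components, the most of the 10 genes.

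Kdr, the main signalling receptor for the vascular growth factor on endothelial cells, was at 19.7, 22.7, 24.6 and 19.7 CPM in LP-NT replicates 01, 02, 03 and 05. It was at 15.7, 14.8, 12.8 and 12.4 CPM in SP-NT replicates 19, 36, 37 and 38, and at 11.5, 12.9, 17.4 and 14.8 CPM in SP-HT replicates 02, 10, 26 and 33. Every LP-NT hamster was above all 8 short photoperiod hamsters, a separation that 1.04% of 16380 GeneIDs showed in either direction, and the short photoperiod groups overlapped.

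The mean was 21.7 ± 2.42 CPM in LP-NT (SD, n = 4), 13.9 ± 1.58 in SP-NT and 14.2 ± 2.56 in SP-HT. For photoperiod, Kdr in SP-NT was 0.643-fold its level in LP-NT, with a 95% interval from 0.544 to 0.760 and a log2(FC) of -0.64 ± 0.109 (SE). It did not pass the threshold in edgeR (adjusted p = 0.180) and did in DESeq2 (-0.64, adjusted p = 0.000298), and without SP-NT replicate 19 the log2(FC) was -0.70 (adjusted p = 0.285 in edgeR). SP-HT against LP-NT gave -0.61 ± 0.135 (adjusted p = 0.0569 in edgeR and 0.00269 in DESeq2). In torpor the log2(FC) was 0.02, with an interval from -0.27 to 0.31.

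Kdr was the only gene of the 10 whose groups did not overlap in CPM for photoperiod, where 3.44% of GeneIDs did not. For SP-HT against LP-NT there were 3, Egln1, Epas1 and Kdr, beside 10.6% of GeneIDs. Other endothelial markers were not analysed here, since their GeneIDs could not be paired with names from the sources used, and the part of vessel content in the Kdr difference was not tested.

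Vegfa, the ligand of Kdr and a classical HIF target, was not called in any comparison. It was at 126, 149, 125 and 119 CPM in LP-NT replicates 01, 02, 03 and 05, at 117, 127, 124 and 124 CPM in SP-NT replicates 19, 36, 37 and 38, and at 108, 104, 113 and 131 CPM in SP-HT replicates 02, 10, 26 and 33. All groups overlapped. Its log2(FC) for photoperiod was -0.08, with an interval from -0.24 to 0.08, and -0.11 for torpor with one from -0.27 to 0.04.

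Of a list of HIF targets written down beside the 10 genes, only Bhlhe40, Slc2a1 and Slc2a3 could be paired with a GeneID, and the others were not analysed here. Bhlhe40, a transcriptional repressor that is induced by HIF and also belongs to the circadian clock, had a mean of 79.1 ± 8.66 CPM in LP-NT (SD, n = 4), 85.1 ± 3.76 in SP-NT and 118 ± 2.22 in SP-HT. By the labels it rose in torpor, with a log2(FC) of 0.47 ± 0.0457 (SE, adjusted p = 0.00214 in edgeR), and SP-HT against LP-NT gave 0.59 ± 0.0742 (adjusted p = 0.00792 in edgeR). The glucose transporter gene of endothelium and glia, Slc2a1, had 124 ± 11.2 CPM in LP-NT, which compares with 128 ± 8.06 in SP-NT and 143 ± 7.17 in SP-HT, and its torpor log2(FC) of 0.15 did not pass the threshold (adjusted p = 0.182 in edgeR). The neuronal glucose transporter gene Slc2a3 fell by 0.25 in torpor as labelled (adjusted p = 0.0485 in edgeR), from 97.3 ± 2.02 CPM in SP-NT to 81.8 ± 6.36 in SP-HT. Leaving out any 1 hamster other than SP-HT replicate 10 took that adjusted p to between 0.0849 and 0.129. In edgeR the Slc2a3 call was also lost with RLE factors (adjusted p = 0.0602), lengths (0.133) and sex (0.0706), and in limma on TPM (0.0773 and 0.0783). DESeq2 kept it with and without lengths (adjusted p = 0.0428 and 0.00783), as did voom, no filter and all 12 samples in 1 fit. In the main torpor fit Bhlhe40 and Slc2a3 were thus called in opposite directions, and both directions would turn if the labels were exchanged. Vegfa and the alpha subunits did not pass the threshold in any comparison.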

How the data were processed

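Expected counts, TPM values and effective lengths per mouse GeneID and sample were used as deposited. The authors trimmed the reads (Trim Galore 0.6.6, with FastQC 0.11.9), pooled all samples into a de novo assembly, kept transcripts with a best hit in the mouse proteome (GRCm39), grouped them by GeneID, and quantified each sample with Bowtie 1.3.0 and RSEM 1.3.1. A GeneID can therefore join isoforms, fragments and related copies. No coordinates or sequences were used.

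Expected counts were rounded, GeneIDs whose counts summed to 10 or more in a comparison were kept, and groups were compared by edgeR 4.0.16 in R 4.3.3 (TMM, quasi-likelihood test, no covariates). CPM used TMM factors over all 12 samples. Effective lengths were compared on the log2 scale by limma 3.58.1, for multi-transcript GeneIDs whose mean count was 50 or more. DESeq2 1.42.0, voom, TPM with a pseudocount of 0.1 or 1, length offsets, other scaling, no filter, sex and leaving out hamsters were the alternatives. The fits were tested on simulated data, with count changes planted only in GeneIDs with a mean count of 50 or more. Length shifts were planted only where length varied little within groups, which did not hold for Egln1, so its length result was not covered. The 10 genes, all described whatever their values, and the lists were chosen with earlier results of these data known. Of 83 listed symbols, 8 were paired with a GeneID, through fold changes and adjusted p-values printed by the study, so these sizes are no independent evidence for them. The match used sizes without signs: the photoperiod sign was as printed for all 8, and the torpor sign was the reverse of the printed one for all 8. Each sample is 1 hamster.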

Additional observations from a re-analysis of the deposited data

Results flagged for a closer look

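Among 90 groups of 4 values (10 genes, 3 groups, 3 measures), 10 held a hamster set far from the other 3. For independent, normally distributed values chance gives this in about 1 in 20 groups. The 3 measures of a gene are linked and the same hamsters recur, so the number 10 cannot show an excess. For Egln1, SP-HT replicate 26 was at 3.59 TPM beside 10.5 to 11.7 TPM in the others. Its effective length of 1829 bases stood beside 718 to 793, and that of LP-NT replicate 05, 2098 bases, beside 759 to 857.

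LP-NT replicate 01 was low for Epas1, at 169 CPM beside up to 206 CPM and at 111 TPM beside 142 to 146 TPM, and for Hif1an, at 6.20 CPM beside 8.59 to 8.95 CPM. The effective length of Vegfa was 3879 bases in SP-NT replicate 38 (others 3260 to 3336) and 3663 bases in SP-HT replicate 02 (others 3266 to 3308). SP-HT replicate 33 had longer effective lengths of Egln3, 2452 bases (others 2410 to 2417), and of the single-transcript gene Kdr, 5681 bases (others 5652 to 5654).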

How the results depend on the processing

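Of the 10 genes, edgeR called 0, 1 and 1 for photoperiod, torpor and SP-HT against LP-NT. For photoperiod, DESeq2 with and without effective lengths called 1, Kdr. For torpor, DESeq2 with and without lengths called 2, and TPM with either pseudocount and sex as a covariate called 0. For SP-HT against LP-NT, DESeq2, voom, all 12 samples in 1 fit and sex as a covariate called 2, Egln1 and Kdr, while DESeq2 with lengths called 1, Kdr in place of Egln1, and edgeR with lengths and TPM with either pseudocount called 0. Leaving out each hamster gave 0 to 1 calls for torpor, Egln1 without SP-HT replicate 26 and Egln3 without SP-HT replicate 33, and 0 to 0 against LP-NT. For effective length, it gave 0 to 1 in torpor (Egln1 without SP-HT replicate 26), and all 12 samples in 1 fit called 1 (Egln2) against LP-NT. The cause of these changes was not tested.

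No called difference of a member changed direction. Uncalled log2(FC) near 0 did. For photoperiod, Egln1 was -0.93 with lengths in DESeq2 and -0.93 in edgeR, and -0.84 and -0.67 in TPM, a turn made by the division by length, and Hif1an was -0.072 in voom and -0.091 to 0.10 when hamsters were left out. In torpor, Hif1a was -0.013 and -0.020 with lengths in DESeq2 and edgeR, -0.062 and -0.061 in TPM and -0.033 to 0.070 when hamsters were left out. Kdr was -0.014 in voom, -0.041 and -0.035 in TPM, -0.030 with sex and -0.097 to 0.11 when hamsters were left out, and Egln2 then ranged from -0.098 to 0.0063. Against LP-NT, Arnt was 0.0031 in DESeq2 and with RLE factors, 0.0040 with no filter, 0.17 and 0.16 with lengths in DESeq2 and edgeR, 0.15 and 0.14 in TPM, 0.081 with sex and -0.096 to 0.10 when hamsters were left out. For photoperiod, Slc2a1 ranged from -0.0016 to 0.10 when hamsters were left out.

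Depth limits Egln1 most, with 32 to 71 counts per sample. No paired analysis was made, because the groups held different hamsters and the replicate numbers mark hamsters, not pairs.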

Other observations

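Of the summed TPM of the 3 prolyl hydroxylases, Egln2 held 75.9% ± 2.23 in LP-NT (SD, n = 4), 79.3% ± 1.14 in SP-NT and 67.7% ± 3.16 in SP-HT. Egln3 held 20.3% ± 1.97, 18.4% ± 1.08 and 23.6% ± 4.38 in the same order. Egln1 held 2.33% to 4.49% in LP-NT, 1.83% to 2.57% in SP-NT and 3.51% to 11.0% in SP-HT, and the TPM of Egln1 and Egln2 also carries the differences in effective length.

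Over the 12 samples and 12903 GeneIDs with a mean of at least 50 counts, the GeneID whose log2 CPM was most like that of Egln1 was 73318, with a Pearson r of 0.97, followed by 494468 with 0.95. The most opposite were 195522 with -0.96 and 106326 with -0.95. Among the other 9 genes r with Egln1 ran from -0.55 (Kdr) to 0.56 (Epas1). These are descriptions over samples that include the 3 groups, and the GeneIDs could not be paired with names here.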
